A study of Mus musculus with 10 samples.

Results

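Amacrine cells with abundant Npy transcript and little Tac1 were examined in single-cell RNA counts of the mouse retina. Npy encodes neuropeptide Y and Tac1 the precursor of substance P. A cell was a member where Npy made up at least 0.2% of its unique molecular identifiers (UMIs, counts of captured RNA molecules) with at least 5 UMIs, where Tac1 made up under 0.1% and where Slc6a9, the glycine transporter GlyT1, had none. The rule gave 803 of 32523 cells, from 14 to 170 per library in the 10 libraries with a median of 72.5. They are called Npy cells below. The nearest group was 327 cells that passed the same Npy and Slc6a9 conditions but had Tac1 at 0.1% or more, called Npy and Tac1 cells. The wider comparison group was 13823 Gad cells, with at least 2 UMIs over Gad1 and Gad2, the enzymes that make GABA, no Slc6a9 and Npy under 0.02%. Tac1 cells without Npy (654 cells) and Slc6a9 cells (4556 cells with at least 2 Slc6a9 UMIs and no Gad1 or Gad2) served for levels.

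All groups came from the same 10 libraries and shared tissue, strain and age, namely the retina of Chx10-cre-GFP mice at postnatal day 19. Papain-dissociated cells had been sorted for the live-cell dye Calcein Blue and against GFP, CD133-APC and CD73-PE, which leaves out cells with any of those 3 labels. Chx10 drives Cre in bipolar cells and their precursors. Libraries were made with the 10x Chromium 3′ v2 chemistry; by the labels 4 belong to batch 3, 5 to batch 2 and 1 to batch 1, and nothing tells whether libraries came from separate animals. P-values below therefore rest on the differences among libraries, and these may be technical.

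Amacrine cells are the interneurons of the inner retina, and most of them are inhibitory, using GABA or glycine to act on bipolar, ganglion and other amacrine cells. Many also make a peptide, which is cut from a precursor, packed into dense-core vesicles and released to act over a distance. Neuropeptide Y acts on receptors coupled to inhibitory G proteins, and in the retina it is known mainly from GABAergic amacrine cells. Starburst cells are the amacrine cells that release acetylcholine as well as GABA.

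Libraries held 950 to 4738 cells and 6302659 to 26028492 UMIs. The median cell had 6539 UMIs among Npy cells, 5912 among Npy and Tac1 cells, 5345 among Gad cells and 3664 among Slc6a9 cells. Some cell barcodes occurred in more than 1 library: 923 barcodes and 1860 cells, of which 43 were Npy cells. Libraries 5 and 6 shared 312 barcodes and libraries 2 and 3 shared 59, while the other 43 pairs of libraries shared 3 to 32. Cells with a shared barcode in libraries 5 and 6 resembled each other more than other cell pairs did (median correlation 0.135 against 0.0149), as did those of libraries 2 and 3 (0.117 against 0.0077). In both pairs they were deep in one library and shallow in the other, with medians of 12340.5 UMIs in library 5 and 1866 in library 6, and of 22489 in library 2 and 998 in library 3. Whether the libraries of such a pair are fully separate was not tested. In libraries 5 and 6, 6 such pairs were Npy cells in both. Without cells of shared barcodes the Npy cells numbered 760 and made up 2.32% of cells per library, against 2.30% with them.

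The label of the group was checked against markers. All 6 amacrine markers were detected in the Npy cells, with summed levels of 7558 to 9429 CPM (UMIs of a gene per 1000000 UMIs of the group), against 7913 to 9119 CPM in the Gad cells. The rule did not ask the Npy cells for GABA genes. At least 2 UMIs of Gad1 and Gad2 were found in 752 of the 803 cells (93.6%), and 21 cells had none. The same markers did not show a single cell type. The summed level of 6 starburst markers (Chat, Slc18a3, Slc5a7, Sox2, Megf10 and Fezf1) was 194 to 697 CPM (median 461) in the Npy cells, against 5.71 to 16.0 CPM (median 12.4) in the Gad cells. In all, 186 Npy cells (23.2%) had at least 2 UMIs of these markers. These are called starburst-marked cells, and the main comparisons are given with and without them. Of other classes, Müller glia markers summed to 338 to 803 CPM in Npy cells against 573 to 771 CPM in Gad cells, and rod markers to 25.4 to 136 CPM against 46.8 to 131 CPM. Ganglion cell markers were lower in every library (197 to 344 CPM against 514 to 571 CPM) and Pou4f2 of that list was at 0 in the Npy cells. Of 6 microglia markers 1 had any UMI in Npy cells. Bipolar markers summed to 107 to 486 CPM against 67.6 to 129 CPM; that list holds Isl1, which starburst cells also express, and without the starburst-marked cells they summed to 32.1 to 132 CPM (median 59.1) in Npy cells against 66.0 to 128 CPM (median 97.7) in Gad cells. Marker lists of AII and A17 amacrine cells had medians of 2731 CPM and 2715 CPM in Npy cells, against 773 CPM and 802 CPM in Gad cells; both lists hold Calb2, which made up most of these sums. Without the starburst-marked cells their medians were 224 CPM and 189 CPM in Npy cells, against 766 CPM and 793 CPM in Gad cells. Horizontal cell markers had a median of 325 CPM in Npy cells against 243 CPM in Gad cells, nearly all of it Calb1 and Sept4, and 204 CPM against 239.9 CPM without the starburst-marked cells.

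The genes that chose the cells are given as a description. Npy lay between 4508 and 5787 CPM (median 5168) in the 10 libraries of Npy cells, and averaged 5124 ± 473 CPM (SD, n = 10 libraries, as for all levels below). It averaged 5961 ± 931 CPM in Npy and Tac1 cells, 14.0 ± 5.94 CPM in Tac1 cells, 10.9 ± 1.81 CPM in Gad cells and 19.1 ± 3.99 CPM in Slc6a9 cells. The low Npy level of the Tac1 and Gad cells follows from the rule; the Slc6a9 cells were not chosen on Npy, and at their 90th percentile Npy was 0, though it reached 0.429% in the highest cell. Within the Npy cells, Npy took a median of 0.411% of a cell's UMIs, with a 10th percentile of 0.224% and a 90th of 0.941%, so many cells lay near the threshold. The 238 cells just inside it (0.2% to 0.3%) had 2462 CPM of Npy and 314 CPM of Slc18a3, and the 332 cells just outside it (0.1% to 0.2%) had 1456 CPM of Npy and 298 CPM of Slc18a3. Tac1 averaged 99.4 ± 35.7 CPM in Npy cells, 3131 ± 431 CPM in Npy and Tac1 cells and 304 ± 34.3 CPM in Gad cells, and 609 of the 803 Npy cells had no Tac1 UMI. There were 64 cells just inside the Tac1 limit (0.05% to 0.1%) and 99 just outside it (0.1% to 0.2%).

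The markers Pou3f1, C1ql3 and Slc38a5 came with the rule and were chosen on these cells, so their levels are a description with no test. Pou3f1, a POU-domain transcription factor gene (chromosome 4, 124656807 to 124660655, plus strand, GRCm38), ran from 73.8 to 389 CPM (median 201) in Npy cells, from 0 to 35.2 CPM (median 15.7) in Npy and Tac1 cells and from 7.82 to 15.4 CPM (median 11.3) in Gad cells. Every library of Npy cells stood above every library of both other groups. C1ql3, which encodes a secreted C1q-like synaptic protein (chromosome 2, 13003457 to 13011806, minus strand), ran from 75.6 to 173 CPM (median 135) in Npy cells, from 10.7 to 286 CPM (median 103) in Npy and Tac1 cells and from 9.15 to 34.7 CPM (median 20.9) in Gad cells. The Npy cells overlapped the Npy and Tac1 cells and stood clear of the Gad cells. In the Tac1 cells without Npy, C1ql3 ran from 37.9 to 168 CPM (median 132), which also overlapped the Npy cells. Slc38a5, which encodes an amino acid transporter (chromosome X, 8271133 to 8280179, plus strand), ran from 0 to 172 CPM (median 76.0) in Npy cells, from 0 to 139 CPM (median 0) in Npy and Tac1 cells and from 0 to 1.66 CPM (median 0) in Gad cells. In the Npy cells it was 94.9, 140, 172 and 104 CPM in the 4 libraries of batch 3, against 70.9, 80.1, 48.2, 69.1 and 71.8 CPM in the 5 of batch 2, without overlap, and 0 in the batch 1 library with its 23 Npy cells. Npy itself lies on chromosome 6, 49822710 to 49829507, plus strand.

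Depth differs between these groups, so the share of cells with a UMI was also taken after each cell was thinned to 2000 UMIs. Thinning left out 63 Npy cells, 37 Npy and Tac1 cells, 89 Tac1 cells, 1845 Gad cells and 843 Slc6a9 cells. Pou3f1 was then found in 23.4% of Npy cells (40.0% unthinned), 2.76% of Npy and Tac1 cells (6.73%), 2.03% of Gad cells (3.94%) and 0.189% of Slc6a9 cells (0.593%). C1ql3 was found in 13.4% of Npy cells (21.9%), 13.1% of Npy and Tac1 cells (22.0%) and 11.5% of Tac1 cells (19.1%). Its share was 2.19% of Gad cells (4.21%) and 0.242% of Slc6a9 cells (0.549%). Slc38a5 was found in 8.38% of Npy cells (12%), 0.690% of Npy and Tac1 cells (0.612%), 0.0250% of Gad cells (0.0434%) and 0.0539% of Slc6a9 cells (0.0439%), so its Gad cell share is at the level of the Slc6a9 cells. Most Npy cells thus had no UMI of any single marker.

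**Figure D1:**
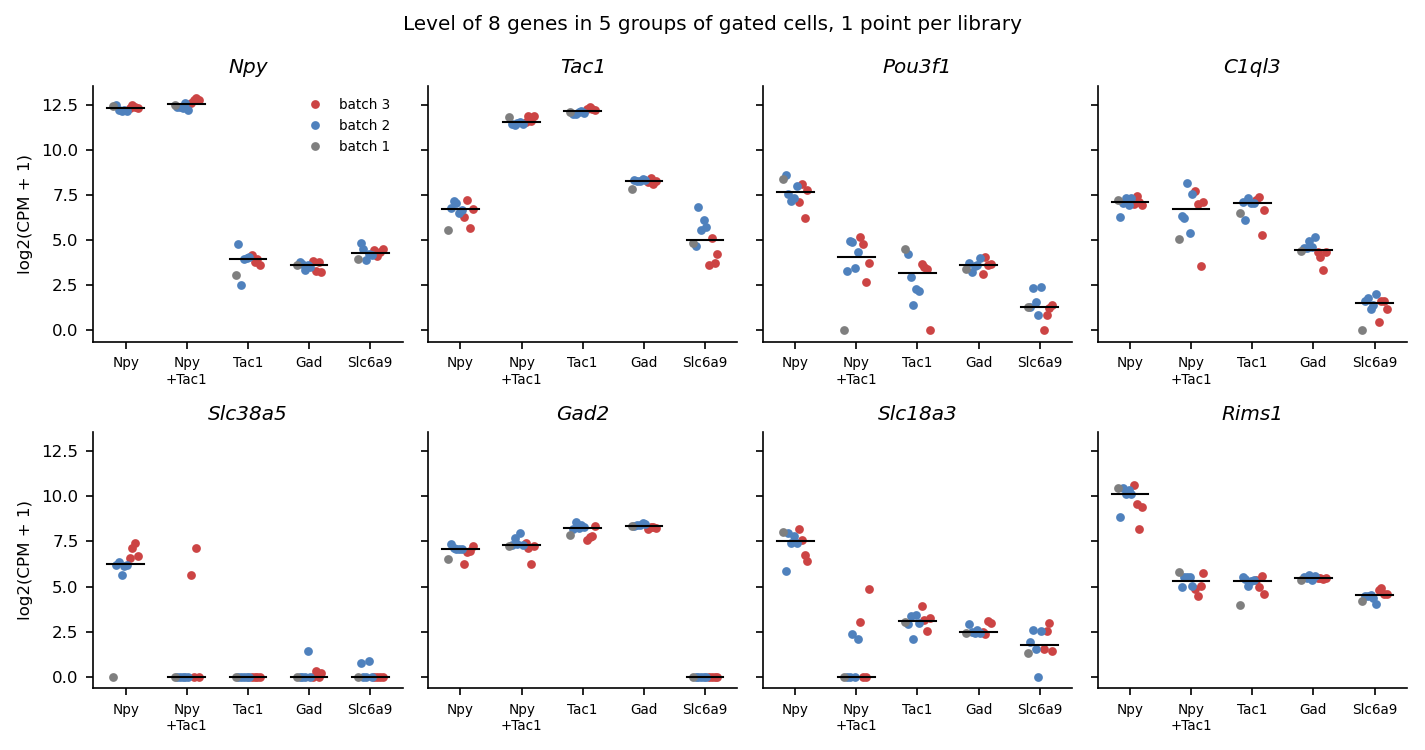
Level of 8 genes in 5 groups of cells, as log2(CPM + 1) of UMIs summed per library (1 point per library, coloured by batch, black line at the median). Npy and Tac1 show the rule. Pou3f1 is higher in every library of Npy cells than in every library of the Npy and Tac1 cells and of the Gad cells. C1ql3 overlaps between both Npy groups, and between the Npy cells and the Tac1 cells.

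Npy cells made up 2.30% ± 0.817 of the cells of a library (SD, n = 10), with a range of 0.866% to 3.63%. The share was 1.48% ± 0.450 in the 4 libraries of batch 3 and 2.93% ± 0.421 in the 5 of batch 2, a difference of -1.45 percentage points. An exact two-sided permutation test gave p = 0.00794, the smallest that 126 relabellings can give. The single batch 1 library had 2.42% (95% exact binomial interval 1.54% to 3.61%, for counting error only). The share was also lower in batch 3 without starburst-marked cells (1.24% ± 0.410 in batch 3, 2.30% ± 0.329 in batch 2) and when only the 752 Npy cells with at least 2 Gad1 and Gad2 UMIs were counted, as a percent of all cells with that many and no Slc6a9 (3.18% ± 0.988 in batch 3, 5.14% ± 0.369 in batch 2), each with exact permutation p = 0.00794. Other things moved with the batch: the median cell had 4795 ± 544 UMIs in batch 3 and 3793 ± 397 in batch 2, and Slc6a9 cells made up 21.2% to 23.2% of a library in batch 3 and 8.13% to 11.3% in batch 2, without overlap. Their part in the difference was not tested.

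**Figure D2:**
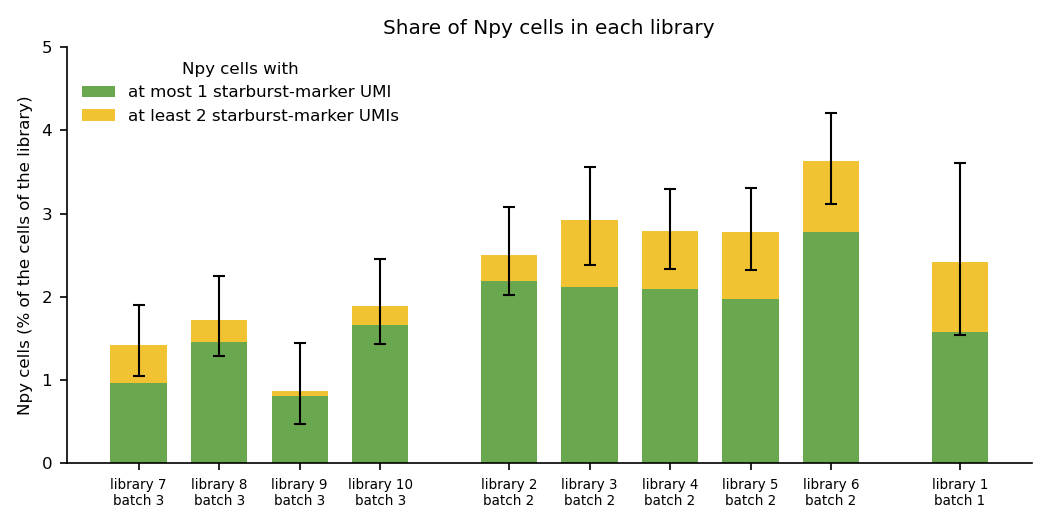
Npy cells as a percent of all cells in each library, with libraries of batch 3 left, then batch 2, then batch 1. Bars are split into cells with at most 1 starburst-marker UMI and cells with at least 2, and error bars are 95% exact binomial intervals of the total; the batch 3 libraries average 1.48% and the batch 2 libraries 2.93%.

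The Npy cells were divided by Leiden clustering of their own variable genes into 7 sub-clusters, which are numbered by size. This number follows from the resolution: 0.25 gave 6 and 1 gave 10, against 0.5 here. Sub-clusters were made from the genes that describe them, so no test was run on them. Levels are means over libraries with at least 5 cells of the sub-cluster.

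Sub-cluster 1 was starburst-like. It held 190 cells, 22.2% ± 9.74 of the Npy cells of a library, and 183 of them were starburst-marked; 5 of the 6 starburst markers (all but Megf10) lay at least 2-fold above the other Npy cells (with 20 CPM added to both). Its leading genes were Calb2 (calretinin, 11077 ± 1456 CPM), Rims1 (a scaffold of the release site), Igfbp7, Isl1 and Slc18a3. It had the lowest Npy of the 6 larger sub-clusters, 3121 ± 379 CPM over 9 libraries. It also held 73.7% of the group's UMIs of Cck (cholecystokinin, 684 ± 179 CPM in the sub-cluster), 83.8% of those of Pomc (245 ± 130.0 CPM) and 79.7% of those of the granin gene Scg2 (3366 ± 387 CPM). At resolutions of 0.25 and 1 a starburst-like sub-cluster again appeared, with 190 and 154 cells.

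Sub-cluster 2 (167 cells, 22.8% ± 7.59) had the highest Npy, 8202 ± 1069.6 CPM. Its leading genes were Vip (vasoactive intestinal peptide, 482 ± 147 CPM), Slc38a5 (353 ± 189 CPM), Tac2 (neurokinin B, 1037 ± 196 CPM), Cngb3 (a subunit of the cone cyclic nucleotide-gated channel, 407 ± 80.8 CPM) and Pou3f1 (651 ± 156 CPM). It held 91.1% of the Slc38a5 UMIs of the whole group and 61.4% of the Pou3f1 UMIs. The nicotinic receptor subunits Chrna6 (211 ± 64.7 CPM) and Chrnb3 (115 ± 35.5 CPM) had 52.4% and 46.9% of the group's UMIs here.

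Sub-cluster 3 (135 cells, 17.9% ± 8.53; Npy 4027 ± 942 CPM) was led by Gas7, Lpl (lipoprotein lipase, 419 ± 133 CPM), Maf, Kcna6 (a voltage-gated potassium channel subunit, 305 ± 68.6 CPM) and Ptn (the growth factor pleiotrophin, 1120.1 ± 385 CPM). It also had 1132 ± 284 CPM of the transcription factor gene Bhlhe22. Among other classes' markers, Glul and Clu of the Müller glia list and Thy1 of the ganglion cell list lay at least 2-fold above the other Npy cells there.

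Sub-cluster 4 (134 cells, 16.2% ± 4.90; Npy 4593 ± 858 CPM) was led by Cdkn1c (a cell-cycle inhibitor, 1539 ± 242 CPM), Cpne4, Tpm2, Map1b and the muscarinic receptor gene Chrm2 (278 ± 98.0 CPM). C1ql1, a relative of C1ql3, averaged 6118 ± 740.3 CPM there, 2503 ± 335 CPM in sub-cluster 5 and 58.0 ± 29.4 CPM in sub-cluster 1. The peptide gene Grp averaged 213 ± 142 CPM, and 60.3% of its UMIs lay in this sub-cluster.

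Sub-cluster 5 (130 cells, 15.0% ± 5.11; Npy 5624 ± 1438 CPM) was led by C1ql3 (586 ± 165 CPM), Elavl2, Nr2f2, Cartpt and Ctxn1, and held 75.9% of the C1ql3 UMIs. Cartpt, which encodes the CART peptide, varied widely there, from 158 to 3780 CPM over 7 libraries. Sub-cluster 6 (37 cells in 9 libraries, 4.62% ± 3.30) had both Pou3f1 (477 ± 81.6 CPM) and C1ql3 (317 ± 111 CPM, n = 4 libraries), beside its leading genes Zfp804a, Epha3, Nkain3, Coch and Brinp1. Sub-cluster 7 held 10 cells in 4 libraries, led by Car8, Tmem114, Ntng1, Kcnip4 and Kcnip2. Its UMIs summed over libraries gave 656 CPM of Pou3f1. Slc38a5 UMIs thus lay mostly in sub-cluster 2 and C1ql3 UMIs mostly in sub-cluster 5, while Npy was high in all 7 by rule.

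**Figure D3:**
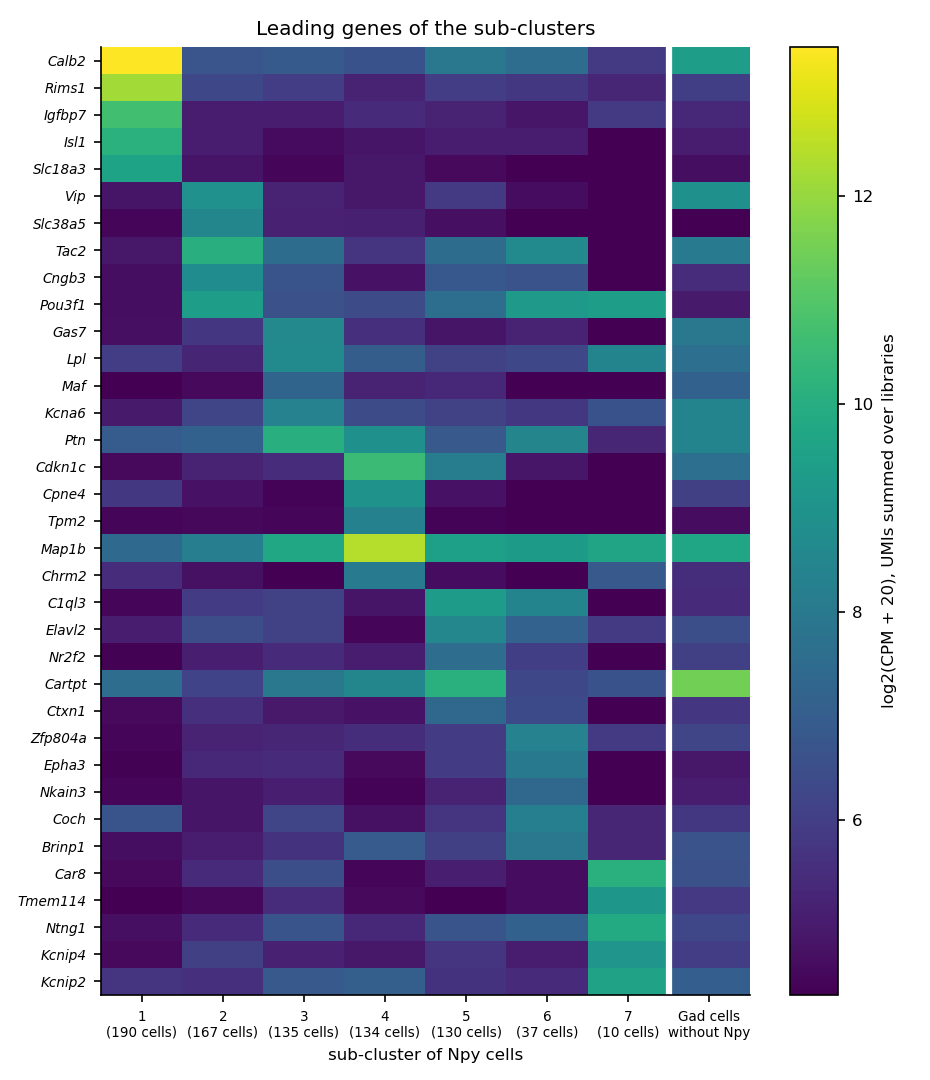
Level of the 5 leading genes of each sub-cluster (rows) in the 7 sub-clusters of Npy cells and in the Gad cells (columns), as log2(CPM + 20) of UMIs summed over all cells of the column. Each gene is highest in its own sub-cluster among the 7, though Kcna6 and Cartpt are higher still in the Gad cells. Slc38a5 is highest in sub-cluster 2 and C1ql3 in sub-cluster 5. Pou3f1 is nearly as high in sub-cluster 7 (656 CPM) and sub-cluster 6 (574 CPM) as in sub-cluster 2 (660 CPM).

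Whether starburst-marked cells carry Npy in general was counted over the series. Of 648 starburst-marked cells with no Slc6a9, 187 passed the Npy threshold, 26.9% ± 10.1 per library (5.88% to 41.7%). Npy averaged 1321 ± 383 CPM in starburst-marked cells, 425 ± 58.0 CPM in the other Gad-positive cells, which include the Npy cells, and 19.1 ± 3.99 CPM in Slc6a9 cells.

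The Npy cells were then compared with the Gad cells of the same libraries, with UMIs summed per library and group (edgeR's quasi-likelihood test with a block for library; calls are at a Benjamini-Hochberg adjusted p under 0.05). The Gad cells pool every GABAergic amacrine type with little Npy. Of 10317 genes tested, 2152 (20.9%) passed: 1048 higher (10.2%) and 1104 lower (10.7%) in the Npy cells. At least 2-fold, 170 were higher (1.65%) and 300 lower (2.91%). The median log2 change over all genes was 0.00.

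The 12 genes with the largest increases that met the naming rule were Sox2, Rprml, Chat, Slc18a3, Slc5a7, Rims1, Isl1, Csrp3, Igfbp7, Espn, Gng7 and Megf11. That rule asks for at least 50 CPM in the higher group and 1 direction in every library. Each gene was therefore higher in 10 of 10 libraries by selection. Of the UMIs of each in Npy cells, 95.9% or more lay in sub-cluster 1. Chat makes acetylcholine, Slc18a3 loads it into vesicles and Slc5a7 takes up choline; Sox2 is a transcription factor gene that starburst cells keep. Slc18a3 ran from 56.7 to 288 CPM (median 183) in Npy cells against 4.12 to 7.43 CPM (median 4.58) in Gad cells, without overlap (log2 change 5.11 ± 0.17, SE, adjusted p = 3.05e-22, edgeR). Rims1 ran from 295 to 1604 CPM (median 1106) in Npy cells against 39.8 to 49.6 CPM (median 43.5) in Gad cells, also without overlap (log2 change 4.53 ± 0.12, adjusted p = 5.16e-25, edgeR). Of these 12, the 4 starburst markers chose the starburst-marked cells.

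Leaving the starburst-marked cells out of both groups was chosen after these values had been seen. It left out 186 Npy cells and 118 Gad cells, so that 617 Npy cells remained, and 1858 of 10178 genes (18.3%) passed, 878 higher (8.63%) and 980 lower (9.63%), with 108 (1.06%) and 292 (2.87%) at least 2-fold. Of the calls with all cells, 1292 passed in the same direction, 60.0% of those and 69.5% of the calls without the starburst-marked cells. Rims1 then had a log2 change of 0.39 ± 0.15 (adjusted p = 0.0596, edgeR) and Isl1 one of 0.34 ± 0.27 (adjusted p = 0.457, edgeR), so neither was called. Calb2 turned round: it averaged 2499 ± 1144 CPM in all Npy cells against 665 ± 89.3 CPM in Gad cells, but 129 ± 91.2 CPM against 660.0 ± 93.7 CPM without the starburst-marked cells (log2 change -2.14 ± 0.10, adjusted p = 3.31e-25, edgeR). Values below are from the 617 Npy cells without starburst markers unless said otherwise. Shares of a gene's UMIs by sub-cluster are of all 803 Npy cells, as are the mean levels of Gad1, Gad2 and Npy1r.

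The 12 largest increases that met the naming rule were then Fezf2, Cngb3, Serpine2, Lypd1, Qpct, Sulf2, Gm12371, Lrrtm4, Lor, Dact2, Efemp1 and Ldb2. Each was higher in 10 of 10 libraries, as the rule requires, with no overlap between the groups. Overlap was looked at for named genes only, so its share among all tested genes is not known. Fezf2, a zinc-finger transcription factor gene, ran from 93.9 to 173 CPM (median 130.5) in Npy cells against 10.5 to 19.7 CPM (median 15.0) in Gad cells (log2 change 2.99 ± 0.11, adjusted p = 2.43e-29, edgeR). Its UMIs were spread over sub-clusters 2, 3 and 5 (33.4%, 34.4% and 30.3%), and with all Npy cells its log2 change was 2.66 ± 0.12. Qpct, whose product glutaminyl cyclase closes the amino terminus of some peptides, ran from 233 to 374 CPM (median 299) against 58.0 to 79.5 CPM (median 66.6) (log2 change 2.13 ± 0.06, adjusted p = 6.99e-35, edgeR), with 46.9% of its UMIs in sub-cluster 2 and 31.2% in sub-cluster 4. Serpine2, a secreted protease inhibitor gene, averaged 351 ± 106 CPM against 76.2 ± 4.69 CPM (log2 change 2.16 ± 0.08, adjusted p = 2.41e-30, edgeR). It was higher still in Npy and Tac1 cells, at 460 ± 107 CPM. Over those cells the Npy cells had a log2 change of -0.39 ± 0.10 (adjusted p = 0.0100, edgeR), lower in 7 of 10 libraries.

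These increases did not belong to 1 sub-cluster. Cngb3 (155 ± 27.9 CPM in Npy cells against 25.1 ± 3.98 CPM in Gad cells) had 70.1% of its UMIs in sub-cluster 2. Lypd1, Lor and Dact2 had 72.6%, 74.6% and 66.7% of theirs in sub-cluster 4; Lypd1 encodes a modulator of nicotinic receptors and Lor the epidermal protein loricrin. Sulf2, which encodes an enzyme that trims heparan sulfate, had 31.3% in sub-cluster 2, 29.1% in sub-cluster 4 and 17.2% in sub-cluster 3 of its UMIs. Lrrtm4, a synaptic adhesion gene, ran from 50.7 to 108 CPM (median 71.8) in Npy cells against 14.8 to 22.9 CPM (median 18.3) in Gad cells, with 55.8% of its UMIs in sub-cluster 2.

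**Figure D4:**
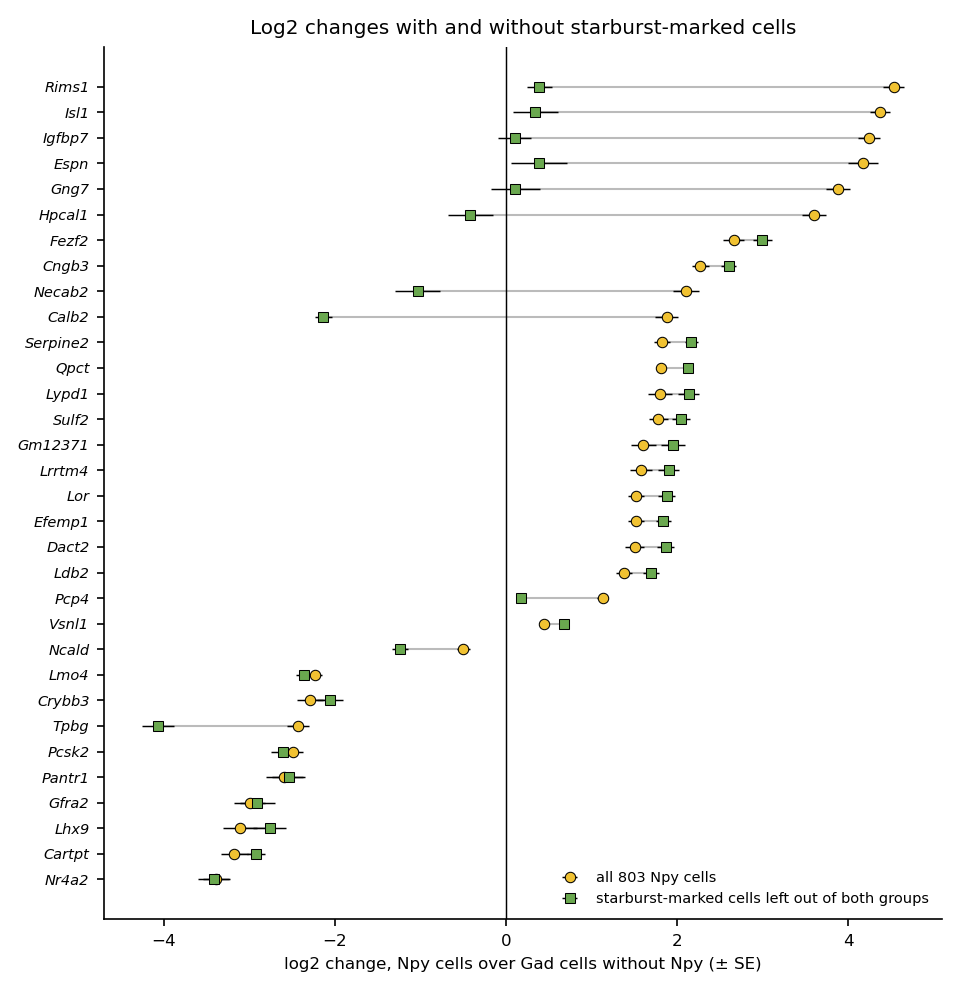
Log2 change ± SE of 32 named genes in Npy cells over Gad cells, with all 803 Npy cells (circles) and with starburst-marked cells left out of both groups (squares). Rims1, Isl1, Igfbp7, Espn and Gng7 lie near 0 in the second fit and Calb2, Necab2 and Hpcal1 below 0, whereas Fezf2, Qpct and Cartpt stay on the same side.

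The 8 largest decreases that met the naming rule were Tpbg, Nr4a2, Cartpt, Gfra2, Lhx9, Pcsk2, Pantr1 and Lmo4. Each was lower in 10 of 10 libraries, as the rule requires, and without overlap. Cartpt ran from 99.9 to 1067 CPM (median 228) in Npy cells against 2137 to 3668 CPM (median 2821) in Gad cells (log2 change -2.93 ± 0.11, adjusted p = 2.43e-29, edgeR). Nr4a2, an orphan nuclear receptor gene, averaged 6.76 ± 7.01 CPM against 95.2 ± 10.4 CPM (log2 change -3.41 ± 0.18, adjusted p = 2.35e-22, edgeR). Lhx9 and Lmo4 encode LIM-domain regulators of transcription and Gfra2 the co-receptor of neurturin; their log2 changes were -2.77 ± 0.19, -2.36 ± 0.10 and -2.91 ± 0.20. Tpbg, which encodes a membrane glycoprotein, averaged 4.89 ± 5.61 CPM against 92.5 ± 16.3 CPM.

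Counts by gene list against Gad cells follow, and no list was tested as a set. Over all genes tested, 10.2% were higher and 10.7% lower with all Npy cells. Without the starburst-marked cells 8.63% were higher and 9.63% lower. Of the genes that make and pack peptides, 7 of 17 tested were higher and 8 lower with all Npy cells (median log2 change 0.02). Without the starburst-marked cells 5 were higher and 7 lower (median -0.10). The 5 were Pam (the amidating enzyme that finishes neuropeptide Y), Qpct, Cadps, Ptprn and Dpp10. Pam averaged 164 ± 55.2 CPM against 104 ± 40.9 CPM (log2 change 0.66 ± 0.07, adjusted p = 1.85e-10, edgeR). The 7 included the prohormone convertase gene Pcsk2, the carboxypeptidase gene Cpe and the granins Chga, Chgb and Scg2. Pcsk2 ran from 7.68 to 26.3 CPM (median 19.4) in Npy cells against 82.5 to 124 CPM (median 116) in Gad cells (log2 change -2.61 ± 0.13, adjusted p = 6.29e-24, edgeR). Scg2 depended on the starburst-marked cells: it averaged 923 ± 354 CPM against 758 ± 107 CPM with them (log2 change 0.33 ± 0.10, adjusted p = 0.0199, edgeR) and 238 ± 102 CPM against 758 ± 109 CPM without them (log2 change -1.51 ± 0.08, adjusted p = 8.63e-24, edgeR).

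Of 9 other neuropeptide genes tested, 4 were higher (Cck, Tac2, Pomc and Grp) and 3 lower (Vip, Cartpt and Ghrh) with all Npy cells. Without the starburst-marked cells 2 were higher (Tac2 and Grp) and the same 3 lower. Tac2 averaged 432 ± 194 CPM against 256 ± 39.1 CPM (log2 change 0.61 ± 0.08, adjusted p = 2.12e-08, edgeR), higher in 9 of 10 libraries. Vip averaged 170.1 ± 87.4 CPM against 483 ± 161 CPM (log2 change -1.67 ± 0.10, adjusted p = 2.07e-21, edgeR), although it led sub-cluster 2. The group as a whole was lower in Vip while 88.1% of its Vip UMIs lay in that sub-cluster. Grp averaged 55.2 ± 30.9 CPM against 12.5 ± 3.59 CPM (log2 change 2.18 ± 0.18, adjusted p = 8.64e-15, edgeR).

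Transcripts of the Y receptors were near 0. None of the 6 genes of the neuropeptide Y family list (Npy1r, Npy2r, Npy4r, Npy5r, Npy6r and Pyy) had enough counts to be tested. Npy1r averaged 1.65 ± 1.27 CPM in Npy cells, 6.10 ± 6.78 CPM in Npy and Tac1 cells and 1.44 ± 0.735 CPM in Gad cells. Npy4r, Npy6r and Pyy had no UMI in Npy cells. Of the other neuropeptide receptor genes, 2 of 10 tested were higher and 5 lower (median -0.67). Sstr2, a somatostatin receptor gene, averaged 6.96 ± 5.17 CPM against 42.3 ± 5.13 CPM (log2 change -2.33 ± 0.19, adjusted p = 7.82e-15, edgeR). Tacr1, the substance P receptor gene, averaged 28.4 ± 11.6 CPM against 18.7 ± 2.48 CPM (log2 change 0.62 ± 0.16, adjusted p = 0.00274, edgeR), with overlapping groups; with all Npy cells it was not called (log2 change 0.28 ± 0.15, adjusted p = 0.223, edgeR).

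Gad1 and Gad2 chose the Gad cells, so no test bears on them. Gad1 averaged 1216 ± 234 CPM in Npy cells, 856 ± 168 CPM in Npy and Tac1 cells and 1235 ± 203 CPM in Gad cells. Gad2 averaged 127 ± 26.4 CPM, 162 ± 44.4 CPM and 329 ± 23.7 CPM in the same groups. Only the Gad cells were selected on Gad1 and Gad2 UMIs, which can by itself raise their level above the others. Gad2 was 22.5 CPM in the starburst-marked Npy cells and 166 CPM in the other Npy cells. Of 12 genes of transmitter synthesis and transport tested, 2 were higher and 5 lower (median -0.12). Those lower included Slc32a1, the vesicular GABA transporter gene, by a small amount (593 ± 95.4 CPM against 676 ± 50.6 CPM; log2 change -0.17 ± 0.04, adjusted p = 0.000822, edgeR). Those higher were Abat, which breaks GABA down (117 ± 11.2 CPM against 89.0 ± 13.2 CPM), and Nos1, which makes nitric oxide (17.4 ± 10.4 CPM against 11.3 ± 8.45 CPM). With all Npy cells 3 of 15 tested were higher, namely Slc18a3, Chat and Slc5a7, and 7 lower; Abat and Nos1 were not called (log2 changes 0.07 ± 0.08 and 0.38 ± 0.22, adjusted p = 0.603 and 0.255, edgeR).

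Among receptors for acetylcholine, monoamines and purines, 6 of 14 tested genes were higher and 5 lower (median -0.07); with all Npy cells 4 were higher and 6 lower. Chrna6 ran from 63.1 to 151 CPM (median 105) in Npy cells against 27.8 to 45.8 CPM (median 37.8) in Gad cells (log2 change 1.40 ± 0.10, adjusted p = 6.96e-17, edgeR). Chrnb3, a subunit that joins Chrna6 in nicotinic receptors, averaged 64.9 ± 11.1 CPM against 29.3 ± 5.10 CPM (log2 change 1.09 ± 0.11, adjusted p = 2.63e-12, edgeR). Neither overlapped between the groups. Htr2c, a serotonin receptor gene, averaged 36.0 ± 24.6 CPM against 7.19 ± 2.59 CPM (log2 change 2.16 ± 0.18, adjusted p = 7.83e-15, edgeR). Chrm2 was higher in 9 of 10 libraries (log2 change 1.33 ± 0.13), with 84.2% of its UMIs in sub-cluster 4, and with all Npy cells it was not called when Npy cells were required to have no Tac1 UMI (log2 change 0.43, adjusted p = 0.0592, edgeR).

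For glutamate receptors 6 of 22 tested genes were higher and 5 lower (median -0.09). Grin2b, an NMDA receptor subunit gene, averaged 166 ± 14.4 CPM in Npy cells against 83.9 ± 11.5 CPM in Gad cells and Gria3, an AMPA receptor subunit gene, 48.4 ± 17.8 CPM against 108 ± 8.47 CPM. Their log2 changes were 0.97 ± 0.06 and -1.07 ± 0.10, without overlap in either. For GABA and glycine receptors 4 of 19 tested genes were higher and 7 lower (median -0.08). Gabrd, the delta subunit of extrasynaptic GABA receptors, turned round like Calb2: with all Npy cells it averaged 129 ± 53.3 CPM against 41.2 ± 5.44 CPM (log2 change 1.74 ± 0.12), and without the starburst-marked cells 19.3 ± 7.65 CPM against 40.7 ± 5.94 CPM (log2 change -0.95 ± 0.15). Sub-cluster 1 held 89.6% of its UMIs.

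Of the transcription factor genes, 13 of 61 tested were higher and 29 lower (median -0.35, against 0.00 over all genes). Those higher included Tfap2a and Meis2 of the amacrine markers and the genes Bhlhe22, Zfhx3, Sox5 and Six3. The amacrine markers as a whole did not go 1 way. Pax6 and Tfap2b were called in neither direction here and lower with all Npy cells, and Slc32a1 was lower in both. Zfhx3 averaged 331 ± 28.9 CPM against 147 ± 18.2 CPM (log2 change 1.15 ± 0.05, adjusted p = 1.30e-25, edgeR). Those lower included Nr4a2, Lhx9, Lmo4, Tfap2e, Eomes, Pou3f3 and Maf. Tfap2e averaged 1.40 ± 1.89 CPM against 28.5 ± 5.89 CPM (log2 change -3.78 ± 0.31, adjusted p = 7.31e-15, edgeR). Pou3f3, from the same family as Pou3f1, ran from 0 to 12.7 CPM (median 1.77) in Npy cells against 22.2 to 33.8 CPM (median 27.9) in Gad cells, without overlap.

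Of voltage-gated and potassium channel genes 4 of 53 tested were higher and 19 lower (median -0.15), beside 8.63% and 9.63% of all genes. With all Npy cells 12 of 54 were higher and 24 lower, beside 10.2% and 10.7% of all genes. Kcna6 was lower by 1.49 ± 0.07 on the log2 scale (110.0 ± 28.6 CPM against 322 ± 26.2 CPM), although it led sub-cluster 3. Kcnk2, a background potassium channel gene, was higher with all Npy cells (55.2 ± 32.3 CPM against 5.07 ± 0.769 CPM, log2 change 3.38 ± 0.17), and 97.2% of its UMIs lay in sub-cluster 1. Of genes of synaptic release 5 of 39 tested were higher and 14 lower (median -0.12). Cplx3, a complexin gene, ran from 214 to 565 CPM (median 485) in Npy cells against 1149 to 1649.7 CPM (median 1309.9) in Gad cells, without overlap (log2 change -1.41 ± 0.06, adjusted p = 5.66e-27, edgeR).

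Adhesion and recognition genes were called in both directions, 21 of 79 tested higher and 25 lower (median -0.13). Lrrtm4 was the largest named increase, and Pcdh11x (5.35 ± 4.19 CPM against 23.7 ± 1.81 CPM), Lamp5 (13.1 ± 10.4 CPM against 69.3 ± 20.5 CPM) and Cbln1 (8.46 ± 9.12 CPM against 44.6 ± 6.44 CPM) were the largest named decreases. Among calcium-binding genes 8 of 23 were higher and 8 lower (median -0.21), while with all Npy cells 12 were higher and 4 lower. Vsnl1, a calcium sensor gene, averaged 1146 ± 145 CPM against 712 ± 65.7 CPM (log2 change 0.67 ± 0.03, adjusted p = 1.48e-23, edgeR). Of amino acid and solute transporter genes 2 of 20 tested were higher, among them the glutamate transporter gene Slc1a1 (89.1 ± 16.3 CPM against 47.1 ± 4.96 CPM), and 5 lower, among them the bicarbonate transporter gene Slc4a4 (3.57 ± 3.52 CPM against 21.0 ± 5.58 CPM); the median was -0.18.

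Immediate early genes, which stimulation and dissociation are both known to switch on, shared 1 list with other genes linked to dissociation, among them Dnajb1 and Hspa1a. The list was called in 1 direction. None of its 16 tested genes was higher and 13 were lower in Npy cells (median -0.60). With all Npy cells 12 were lower (median -0.85). Fos ran from 91.6 to 405 CPM (median 241) in Npy cells against 466 to 802 CPM (median 644) in Gad cells, without overlap (log2 change -1.30 ± 0.07, adjusted p = 2.00e-22, edgeR). Junb averaged 147 ± 69.5 CPM against 307 ± 71.0 CPM (log2 change -0.97 ± 0.08, adjusted p = 6.62e-15, edgeR), lower in 10 of 10 libraries though the groups' ranges overlapped. Fosb was not called with all Npy cells when library was not a block (log2 change -1.02, adjusted p = 0.181, edgeR). Whether dissociation had a part in these levels was not tested.

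**Figure D5:**
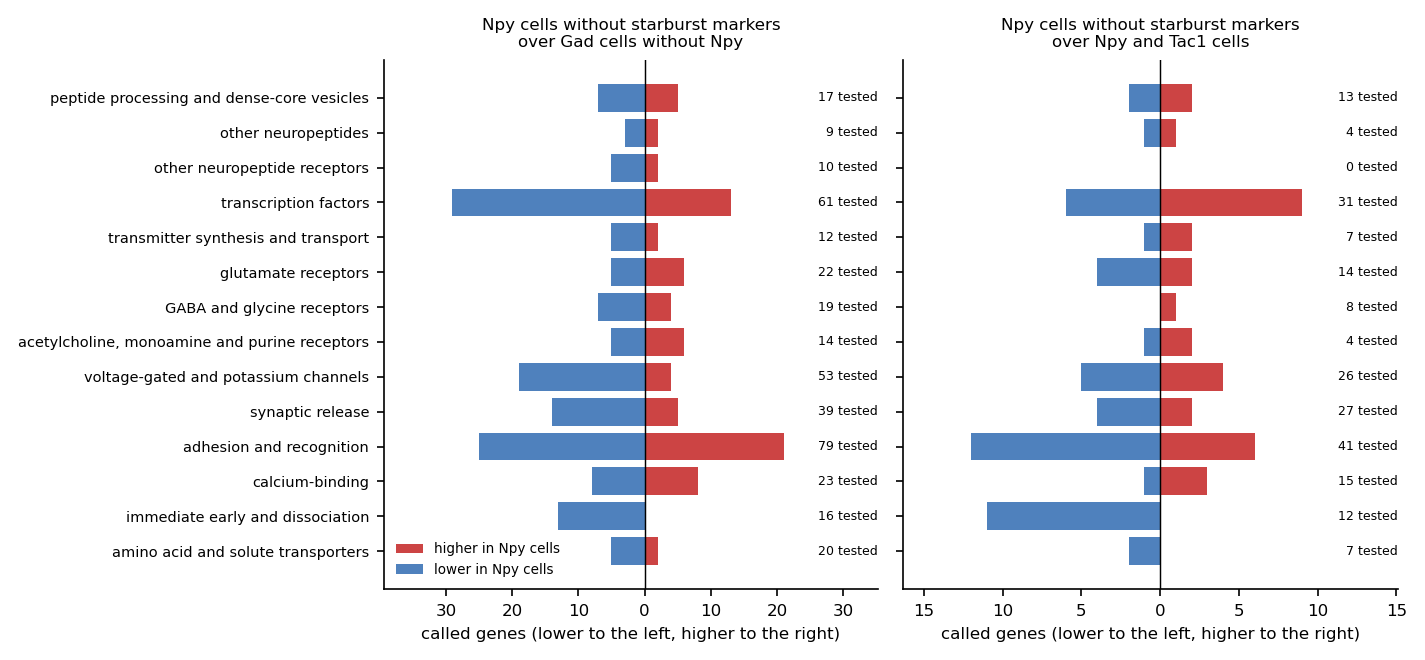
Number of genes higher (right of 0) and lower (left of 0) in Npy cells for 14 gene lists, without starburst-marked cells, against Gad cells and against Npy and Tac1 cells (edgeR, adjusted p under 0.05). The immediate early and dissociation list has 13 and 11 lower genes and no higher gene. The adhesion list has 21 higher and 25 lower genes against Gad cells. Over all genes tested, 8.63% were higher and 9.63% lower against Gad cells, and 4.24% and 5.71% against Npy and Tac1 cells.

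The second comparison set the Npy cells against the Npy and Tac1 cells, which passed the same Npy threshold and differ from them by rule in Tac1. Of 4281 genes, 638 passed (14.9%), 319 higher (7.45%) and 319 lower (7.45%), with 53 (1.24%) and 51 (1.19%) at least 2-fold. Without starburst-marked cells 413 of 4154 passed (9.94%), 176 higher (4.24%) and 237 lower (5.71%), with 25 (0.602%) and 43 (1.04%) at least 2-fold. The median log2 change was 0.00 and -0.01. This comparison and the first share the Npy cells, so the genes called in both are not independent.

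The largest increases with all Npy cells were again led by Slc18a3, Rims1 and Calb2, of which Rims1 and Calb2 were not called without the starburst-marked cells (adjusted p = 0.215 and 0.274, edgeR). Without those cells the 12 that met the naming rule were Lrrtm4, Pcdh10, Six3, Bhlhe22, Sulf2, Zfhx3, Qpct, Ptn, Npnt, Unc5d, Auts2 and Cacna2d1. Each was higher in 10 of 10 libraries, as the rule requires. Lrrtm4 was not among the genes tested with all Npy cells. Six3, a homeodomain transcription factor gene of the retina, ran from 435 to 937 CPM (median 682) in Npy cells against 21.1 to 396 CPM (median 166) in Npy and Tac1 cells (log2 change 1.90 ± 0.18, adjusted p = 2.41e-10, edgeR). Bhlhe22 ran from 361 to 642 CPM (median 498) against 43.6 to 228 CPM (median 134) (log2 change 1.87 ± 0.12, adjusted p = 1.53e-14, edgeR), with 50.1% of its UMIs in sub-cluster 3. Neither gene overlapped between the groups. Pcdh10, a protocadherin gene, averaged 203 ± 49.7 CPM against 35.6 ± 24.4 CPM (log2 change 2.32 ± 0.17, adjusted p = 5.52e-13, edgeR). Qpct averaged 299 ± 50.8 CPM against 107 ± 38.4 CPM (log2 change 1.46 ± 0.10, adjusted p = 1.41e-13, edgeR).

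The 8 largest decreases that met the naming rule were Nfia, Egr4, Scg2, Cbln4, AI593442, Tenm1, Epha5 and Cartpt. Each was lower in 10 of 10 libraries, as the rule requires. Nfia, a nuclear factor I gene, ran from 0 to 69.0 CPM (median 14.0) in Npy cells against 84.4 to 338 CPM (median 206) in Npy and Tac1 cells, without overlap (log2 change -2.73 ± 0.22, adjusted p = 4.84e-12, edgeR). Scg2 averaged 238 ± 102 CPM against 1295 ± 221 CPM (log2 change -2.35 ± 0.10, adjusted p = 6.15e-19, edgeR). AI593442 averaged 146 ± 70.7 CPM against 578 ± 247 CPM (log2 change -1.98 ± 0.10, adjusted p = 1.00e-17, edgeR). Egr4, an immediate early transcription factor gene, averaged 34.0 ± 25.9 CPM against 222 ± 94.5 CPM.

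By list, 9 of 31 transcription factor genes were higher and 6 lower (median -0.12). Of 41 adhesion genes 6 were higher and 12 lower (median -0.10). Over all genes tested here, 4.24% were higher and 5.71% lower. Of 12 tested genes of the immediate early and dissociation list none was higher and 11 lower (median -1.24). Jun averaged 77.4 ± 41.9 CPM in Npy cells against 242 ± 112 CPM in Npy and Tac1 cells (log2 change -1.51 ± 0.15, adjusted p = 1.85e-09, edgeR). Of 4 other neuropeptide genes tested 1 was higher and 1 lower. Tac2 averaged 432 ± 194 CPM against 103 ± 146 CPM (log2 change 1.78 ± 0.26, adjusted p = 4.02e-06, edgeR), and with all Npy cells it was not called in batch 2 alone (log2 change 0.88, adjusted p = 0.0551, edgeR). Cartpt averaged 360.4 ± 289 CPM against 1103 ± 657 CPM. Cck had a log2 change of 1.13 ± 0.29 with all Npy cells and one of -0.37 without the starburst-marked cells.

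Receptor genes differed in both directions. The metabotropic glutamate receptor gene Grm5 was lower (36.7 ± 14.7 CPM in Npy cells against 101 ± 46.8 CPM in Npy and Tac1 cells), with a log2 change of -1.46 ± 0.19. Gabra2, a GABA receptor subunit gene, was higher (111 ± 22.6 CPM against 46.4 ± 26.6 CPM; log2 change 1.16 ± 0.20, adjusted p = 3.81e-05, edgeR). Htr2c, higher than in Gad cells, was lower than in Npy and Tac1 cells (36.0 ± 24.6 CPM against 52.8 ± 15.5 CPM; log2 change -0.71 ± 0.21, adjusted p = 0.0236, edgeR). Chrna6 and Chrnb3 were higher (log2 changes 0.84 ± 0.16 and 0.86 ± 0.20, in 9 of 10 libraries each). With all Npy cells Chrnb3 was not called (log2 change 0.51 ± 0.20, adjusted p = 0.0897, edgeR), and Chrna6 was not called without library 2, library 6 or library 8 (adjusted p = 0.0596, 0.0650 and 0.0504, edgeR). The vesicle fusion gene Snap25 was lower (1459 ± 108 CPM against 2188 ± 224 CPM; log2 change -0.59 ± 0.05, adjusted p = 9.24e-12, edgeR).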

How the data were processed

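The authors deposited 1 table of counts, that is, whole numbers of UMIs per gene and cell for 32523 cells of 10 libraries. The submitters' processing notes name Cell Ranger 2.1.0 and mm10; for the annotation, the filters on cells and doublet removal, the sources used here give nothing. All values were found to be whole. Of 27933 gene symbols, 7109 had no count and 26646 had a record in GENCODE M21 (GRCm38), the source of the coordinates.

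Cells were gated as described above and their counts summed per library and gate. CPM are these sums per 1000000 UMIs, computed here. Differences were tested with edgeR 4.0.16 in R 4.3.3 (quasi-likelihood, TMM, filterByExpr, Benjamini-Hochberg over all genes tested, threshold 0.05). Library was a block because both gates of a number come from the same library. Gate genes and the markers given with the rule stayed in the fit but got no test and no place in any count. The SE of a log2 change is its absolute value over the square root of F. The fit was checked on simulated data. DESeq2 1.42.0 was an alternative. Sub-clusters used scanpy 1.11.5 and leidenalg 0.10.2 on 1497 variable genes and 20 principal components, scaled within library. No doublet caller was run; an alternative left out cells above the 95th percentile of UMIs of their library. Intervals cover counting error only.

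Named genes are, per comparison, the 12 largest increases and 8 largest decreases among called genes with at least 50 CPM in the higher group and 1 direction in every library, up to 4 called genes per list with at least 20 CPM, and the leading 5 genes per sub-cluster by fold with 20 CPM added. Pam, Scg2, Nos1, Zfhx3 and a few genes named beside them were taken from the lists after their values had been seen. The members, lists and tests were chosen with earlier results of these data known. A few genes that the rule names are not reported here.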

Additional observations from a re-analysis of the deposited data

Results flagged for a closer look

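Of 110 values checked over the 10 libraries of Npy cells, 8 had a library whose gap to the nearest other library, divided by the range, passed Dixon's 95% critical value; chance flags about 1 in 20 groups. Sub-cluster 4 held 4.35% of the Npy cells of library 1, against a next lowest share of 15.2% and a median of 15.9%. The gene levels here are of all 803 Npy cells. Cntnap5a was at 0 in library 9, which had 14 Npy cells, against a next lowest level of 20.8 CPM. Htr2c was 65.7 CPM in library 1 (next 35.9 CPM). Gfra2 was 15.8 CPM in library 2 (next 6.73 CPM), and Glra1 was 20.5 CPM there (next 8.25 CPM). Grp was 118 CPM in library 8 (next 71.2 CPM). Kcnab1 was 278 CPM in library 3 (next 186 CPM). Pantr1 was 55.5 CPM in library 10 (next 26.9 CPM).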

How the results depend on the processing

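The share of Npy cells was 0.908% with Npy at least 0.5% and 10 UMIs, 3.57% with at least 0.1% and 3 UMIs against 2.30% as given; all 803 Npy cells were 4.55 per 100 Gad-positive cells, and those that were Gad-positive 4.30% of them; leaving out each library in turn gave 2.15% to 2.45%, and a difference between batch 3 and batch 2 of -1.59 to -1.25. In every setting tried for the share it was lower in batch 3 (exact permutation p from 0.00794 to 0.0286). With a library left out fewer relabellings remain, so the smallest p that can be reached is higher there.

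The number of genes tested differed between settings. Against Gad cells (2152 of 10317 tested genes called), batch 3 alone called 819 of 10807 (346 higher, 473 lower). Thinning to 2000 UMIs called 824 of 6891 (382 higher, 442 lower). With no filter on low counts, 2606 of 19809 were called (857 higher, 1749 lower). Against Npy and Tac1 cells (638 of 4281 called), batch 3 alone called 230 of 4022 (118 higher, 112 lower). Thinning called 175 of 1428 there (88 higher, 87 lower). With Npy at least 0.5% and 10 UMIs, in 8 libraries, 259 of 3022 were called (105 higher, 154 lower). No filter gave 1133 of 16341 (696 higher, 437 lower), and leaving out starburst-marked cells 413 of 4154 (176 higher, 237 lower). Leaving out each library in turn called 1881 to 2192 (889 to 1082 higher, 992 to 1151 lower) and 545 to 660 (256 to 318 higher, 289 to 342 lower). DESeq2 called 1963 of 14430 genes tested and 622 of 11587. Of the edgeR calls, 1679 (78.0%) and 396 (62.1%) were among these in the same direction.

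With no replicate block, 1579 genes were called against Gad cells and 504 against Npy and Tac1 cells; 1567 and 499 of these were among the calls with the block.

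Named genes changed sign in 2 settings. Without starburst-marked cells, log2 changes against Gad cells were -2.14 for Calb2, -1.0 for Gabra4, -0.95 for Gabrd, -0.42 for Hpcal1, -0.22 for Kcnb2, -1.03 for Necab2 and -0.043 for Pomc, and -0.37 for Cck against Npy and Tac1 cells. With Npy at least 0.5% they were -1.11 for Calb2, -0.68 for Gabra4, -0.99 for Gabrd, -0.67 for Kcnb2 and -0.48 for Necab2 against Gad cells, and -0.86 for Cck and -0.10 for Chgb against Npy and Tac1 cells. The cause was not tested. Groups of 14 to 170 Npy cells per library limit which low genes can be tested.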
